A study of Mus musculus with 32 samples.

Results

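The 7 genes described here are transcription factors known for setting up or keeping the identity of the retinal pigment epithelium (RPE), the cell layer between the photoreceptors and the choroid: *Otx2*, *Otx1*, *Mitf*, *Tfec*, *Sox9*, *Pax6*, and *Lhx2*. They were found by gene symbol in the table of estimated counts, where each had 1 of the 34453 rows. The RPE came from *rd1* mice, given as FVB/N in the methods. These mice carry a mutation of the rod phosphodiesterase gene *Pde6b*, so that rods die early and cones and RPE degenerate afterwards. Whether the eyes held pigment is not given in the sources used here. In each mouse, 1 eye, called the Nrf2 eye here, was given both AAV-Best1-Nrf2 and the virus AAV-Best1-GFP. The fellow eye, called the control eye, was given the GFP virus only. The Best1 promoter, taken from the human gene, limits expression to RPE, and the NRF2 it drives is the human protein. RPE RNA was collected at P20 from 7 mice and at P40 from 9 mice, giving 7 Nrf2 and 7 control eyes at P20, and 9 and 9 at P40. Every group therefore shares the *rd1* label and the GFP virus, and the groups differ in the Nrf2 virus and in age. The labels give *rd1* for all mice and the strain was taken from them, but the methods count fewer *rd1* pairs at both ages, and at P40 their *rd1* and CD1 (wild-type) pairs together equal the number of P40 mice here. If some P40 mice were CD1, strain and age cannot be told apart in the comparisons of age, and the P40 comparisons of eyes would span both strains. RNA came from the eyecup after the retina was removed and was amplified before library preparation, so other cells of the eyecup may be present.

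In the embryo, the optic vesicle is patterned by PAX6 and LHX2, and the cells that then express MITF and OTX2 become RPE. MITF, a basic helix-loop-helix leucine zipper factor, and OTX2, a homeodomain factor, are known to act together on pigment genes such as *Tyr*, *Tyrp1*, and *Dct*, and in the adult RPE, OTX2 and SOX9 are known to act on visual cycle genes such as *Rpe65* and *Rlbp1*. None of the factors is made in RPE alone, since OTX2 is also present in photoreceptors and bipolar cells, PAX6 in amacrine and ganglion cells, SOX9 and LHX2 in Müller glia, and MITF in melanocytes.

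The 32 libraries held between 16548332 and 50542797 estimated counts, with a median of 34471849. Reads of the human transgene were between 3205 and 10438 CPM (counts scaled to a common library size) in the Nrf2 eyes and between 0 and 154 CPM in the control eyes, except in 2 P20 libraries, control mouse 3 at 1098 CPM and Nrf2 mouse 4 at 1082 CPM. These 2 libraries carry different numbers and different treatments in the labels. They also differed from each other by only 8.21 times the sampling noise, against 50.8 times for the next closest pair. Values of the factors with Nrf2 at P20 and with age are therefore shown with and without mice 3 and 4. So are those of most other genes named as called with age or given at P20. All 9 RPE markers examined were detected in each group, with a summed level between 5061 and 71713 CPM per library. Of these 9, 1 was lower in Nrf2 eyes at P20 and 5 at P40 by edgeR, and 0 were higher. Their median log2 fold changes were −0.30 and −1.055. All 9 are also among the 12 visual cycle and RPE effector genes described below. All 8 cone markers fell in Nrf2 eyes at P40, summing to between 271 and 2106 CPM in P40 control eyes and between 28.8 and 307 CPM in P40 Nrf2 eyes, and the part of these cells in the results was not tested. In bulk RNA, fewer cells of a type and less RNA per cell cannot be told apart. Which library was sequenced in which run is not given in the sources used here, so runs and groups cannot be told apart.

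Sequences before the transcription start sites are shown for the 4 factors *Otx2*, *Mitf*, *Pax6*, and *Lhx2*, because the windows shown held a motif of a factor in this network or of NRF2 itself. RefSeq promoters, from 250 bases before to 50 after the start (GRCm38.p6), were present for 5 of the 7 genes, in 12 windows. Searched on both strands were TAATCC, the core bound by OTX factors, CACGTG, the E-box, CATGTG, the M-box core bound by MITF and its relatives, and TGACNNNGC, the core of the antioxidant response element bound by NRF2. Capitals mark each match, and the 250 bases before the start are printed 5′ to 3′ on the strand of the gene.
Otx2, chr14:48667645-48667894, minus strand: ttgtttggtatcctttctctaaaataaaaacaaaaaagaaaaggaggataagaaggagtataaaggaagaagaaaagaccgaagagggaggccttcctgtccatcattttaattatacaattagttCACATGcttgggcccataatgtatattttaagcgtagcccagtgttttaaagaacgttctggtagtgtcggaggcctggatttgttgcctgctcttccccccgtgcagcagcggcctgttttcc
Mitf, chr6:97929567-97929816, plus strand: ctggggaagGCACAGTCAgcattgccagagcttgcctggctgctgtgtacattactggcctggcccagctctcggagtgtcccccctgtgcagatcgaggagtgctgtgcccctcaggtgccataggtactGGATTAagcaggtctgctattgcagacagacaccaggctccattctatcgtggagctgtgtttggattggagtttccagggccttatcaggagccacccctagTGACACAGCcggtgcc
Pax6, chr2:105682213-105682462, plus strand: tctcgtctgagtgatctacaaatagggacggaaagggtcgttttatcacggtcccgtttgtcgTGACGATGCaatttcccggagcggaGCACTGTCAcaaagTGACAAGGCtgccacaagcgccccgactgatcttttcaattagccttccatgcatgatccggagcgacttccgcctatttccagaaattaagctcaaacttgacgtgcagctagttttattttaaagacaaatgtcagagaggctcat
Lhx2, chr2:38339031-38339280, plus strand: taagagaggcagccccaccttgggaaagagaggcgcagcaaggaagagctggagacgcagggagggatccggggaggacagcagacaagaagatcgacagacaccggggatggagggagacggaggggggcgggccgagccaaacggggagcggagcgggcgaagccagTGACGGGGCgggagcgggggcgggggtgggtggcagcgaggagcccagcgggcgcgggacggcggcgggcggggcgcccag

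The *Otx2* window held an M-box core on its other strand (CACATG) 124 bases before the start. The *Mitf* window held the OTX core on its other strand 119 bases before the start and cores of the antioxidant response element at 241 and 16 bases. The *Pax6* window, that of an internal start, held 3 cores of the antioxidant response element at 187, 162, and 148 bases, and the *Lhx2* window held 1 at 81 bases. Of the remaining windows, 1 of *Tfec* held that core 47 bases before its start and 1 of *Otx2* held the OTX core at 211 bases. By motif, 2 of the 12 windows held the OTX core, 0 the E-box, 1 the M-box core, and 4 the core of the antioxidant response element. The *Otx2* window shown overlaps another window of that gene, so the windows are not all separate. For comparison, 7.06% of all 32851 mouse promoters of this length held the OTX core, 7.15% the E-box, 14.2% the M-box core, and 12.4% the core of the antioxidant response element. These matches describe the letters in the windows and were not measured as bound sites.

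Scaled by length, *Otx2* had the highest level of the 7 genes and *Tfec* the lowest. The mean over the 32 libraries, in CPM per kilobase of annotated exon, was 83.0 ± 24.3 (SD) for *Otx2*, 57.6 ± 18.8 for *Sox9*, 26.1 ± 21.3 for *Pax6*, 24.3 ± 9.52 for *Lhx2*, 12.3 ± 4.50 for *Mitf*, 11.7 ± 4.00 for *Otx1*, and 0.384 ± 0.389 for *Tfec*. *Otx2* was above *Sox9* in 31 of 32 libraries, *Sox9* above *Pax6* in 29, *Lhx2* above *Mitf* in 29, and *Otx1* above *Tfec* in all 32. *Pax6* and *Lhx2* were not separated, with *Pax6* higher in 12 of 32 libraries, nor were *Mitf* and *Otx1*, with *Mitf* higher in 16. The place of *Pax6* depended on the length used, since its 11694 bases of exon come from 26 transcripts. Per kilobase of the longest transcript, its mean of 68.9 was above the 57.6 of *Sox9*, and it was higher in 16 of 32 libraries. *Tfec* rested on 0 to 334 estimated counts per library, against at least 315 for every other factor.

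**Figure D1:**
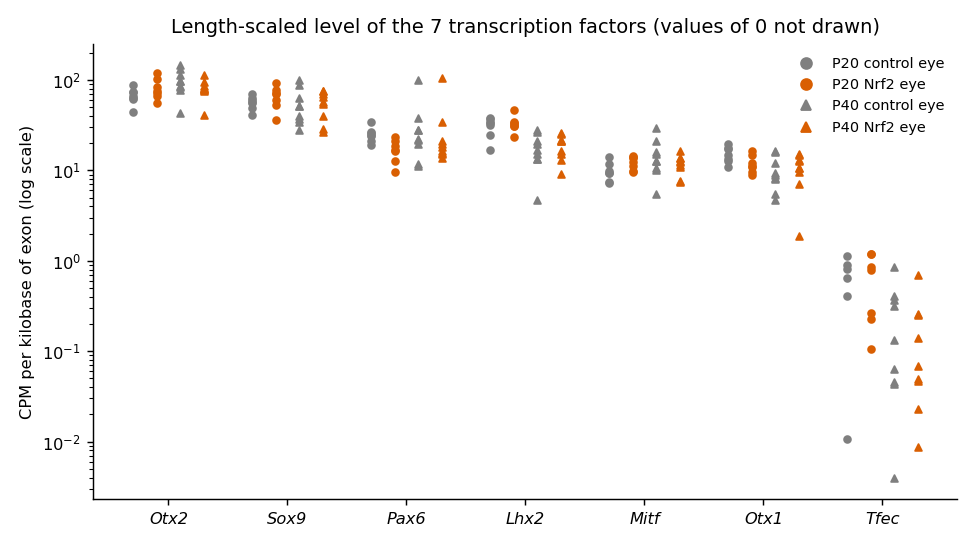
Level of each transcription factor in each library, in CPM per kilobase of annotated exon on a log scale, ordered by the mean over 32 libraries (circles P20, triangles P40, gray control eyes, orange Nrf2 eyes). *Otx2* at a mean of 83.0 and *Sox9* at 57.6 lie at the top, and *Tfec* at 0.384 lies far below the others.

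Neither Nrf2 nor age moved any of the 7 factors past the threshold by edgeR. That threshold was an adjusted *P* value under 0.05 over all genes tested, and it was applied in 5 comparisons. Of all genes tested, 3.41% passed for Nrf2 against control eyes at P20 (2.93% higher and 0.485% lower), and of the factors 0 passed by edgeR, 1 by DESeq2 (*Pax6*), 2 by limma voom (*Pax6* and *Otx1*), and 1 at an unadjusted *P* value under 0.05 (*Pax6*). At P40, 4.57% of all genes passed (3.33% higher and 1.23% lower), and 0 factors passed by any of these tools or without adjustment. For P40 against P20 in control eyes, 14.8% of all genes passed (8.34% higher and 6.42% lower), and 0 factors by edgeR, 2 by DESeq2 (*Otx2* and *Lhx2*), 1 by limma voom (*Lhx2*), and 4 without adjustment (*Otx2*, *Otx1*, *Mitf*, and *Lhx2*). In Nrf2 eyes, 0.502% of all genes passed with age (0.167% higher and 0.334% lower), and 0 factors by edgeR, 1 by DESeq2 and by limma voom (*Lhx2*), and 2 without adjustment (*Tfec* and *Lhx2*). For the change of the Nrf2 effect from P20 to P40, 0.00557% of all genes passed, and 0 factors by edgeR, 0 by DESeq2, 0 by limma voom, and 1 without adjustment (*Mitf*). At an unadjusted *P* value under 0.05 by edgeR, 2964 of 16303 genes passed for Nrf2 at P20 and 2173 of 16686 at P40. With age, 5917 of 16832 passed in control eyes and 4326 of 16745 in Nrf2 eyes, and 429 of 17959 for the change. DESeq2 and limma voom also called more genes than edgeR in each of the first 4 comparisons, with the numbers given below. The counts of factors without adjustment or by these tools stand beside those larger numbers. The median log2 fold change of the 7 factors was 0.16 at P20 and −0.20 at P40 for Nrf2, beside −0.04 and −0.03 over all genes tested, and −0.01 and −0.15 with age (control, then Nrf2 eyes), beside −0.00 and 0.02 over all genes. The P40 control eyes entered both the comparison with Nrf2 eyes at P40 and that with P20 control eyes, and each other group likewise entered more than 1 comparison, so these values are not independent.

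**Figure D2:**
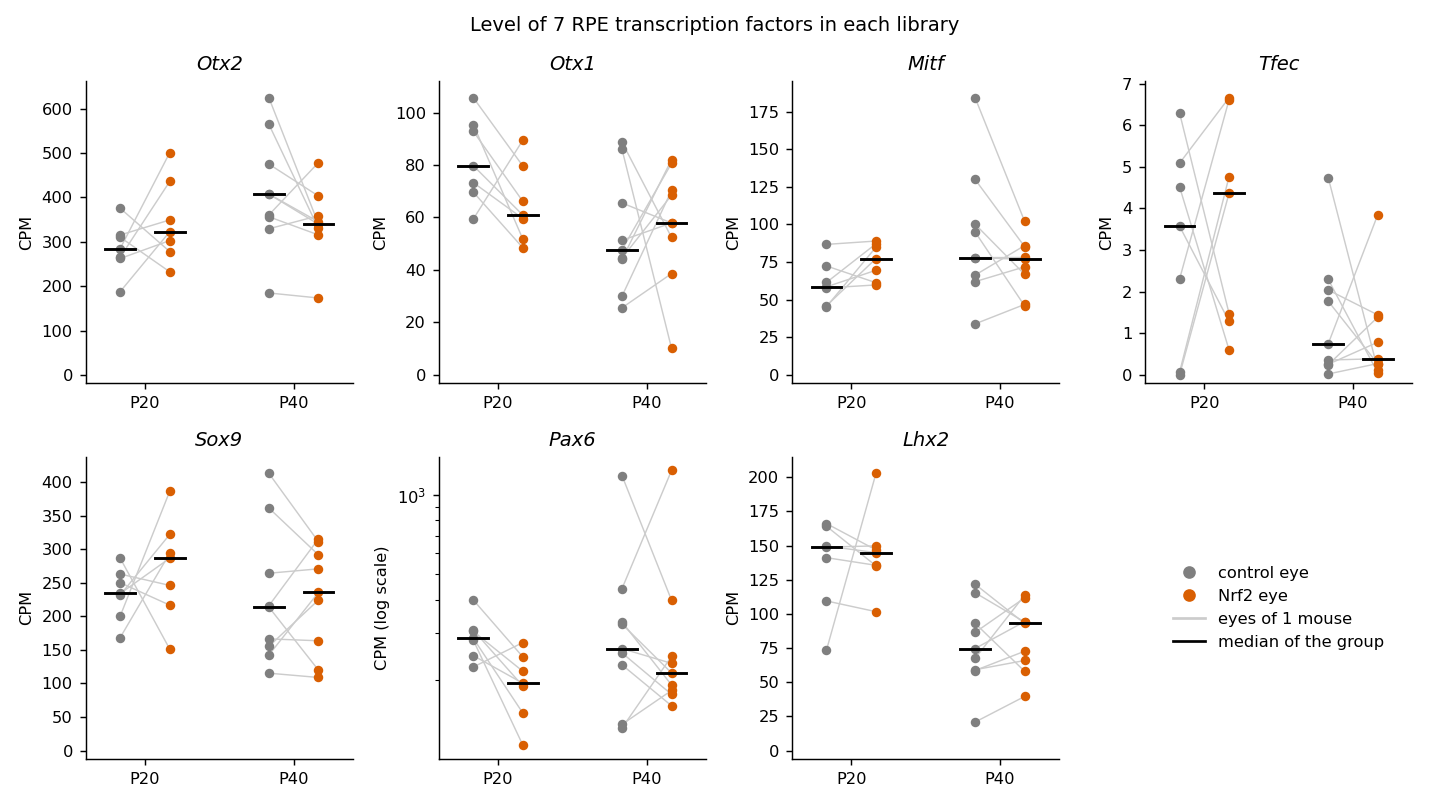
CPM of each transcription factor in each of the 32 libraries (gray control eyes, orange Nrf2 eyes, lines joining the eyes of 1 mouse, black bars the group medians, *Pax6* on a log scale). Nrf2 and control eyes overlap in every panel at both ages, and 1 library in each P40 group of *Pax6* lies far above the rest, at 1179 and 1232 CPM.

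*Otx2* (ENSMUSG00000021848, GRCm38 chr14:48657677-48673819, minus strand) encodes the OTX homeodomain factor needed for RPE specification and photoreceptor fate. At P20 its level ranged from 188 to 375 CPM with a median of 285 in control eyes, and from 232 to 501 CPM with a median of 323 in Nrf2 eyes. At P40 it ranged from 185 to 624.7 CPM with a median of 407 in control eyes, and from 173 to 478 CPM with a median of 340 in Nrf2 eyes. The groups overlapped at both ages, and the lowest library of each P40 group came from mouse 8. Nrf2 against control eyes gave 0.23 ± 0.18 (log2 fold change ± SE, adjusted *P* = 0.541) at P20, with 5 of 7 mice higher in the Nrf2 eye, and −0.28 ± 0.17 (adjusted *P* = 0.585) at P40, with 7 of 9 lower. In fold terms, the 95% CI was 0.878 to 1.56 at P20 and 0.643 to 1.062 at P40. Without P20 mice 3 and 4, the P20 value was 0.23 (adjusted *P* = 0.588). The difference between the ages, −0.50 ± 0.25 on the log2 scale, did not pass the threshold (adjusted *P* = 1.00).

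With age, *Otx2* had a log2 fold change of 0.56 ± 0.22 (adjusted *P* = 0.0843) in control eyes, where 5 of 9 P40 libraries were above every P20 library and 1 was below every one. Corrected for transcript length and GC content, it was 0.40 (adjusted *P* = 0.243). It passed under DESeq2 (0.59, adjusted *P* = 0.0330) and without the P40 control eye of mouse 8 (0.66, adjusted *P* = 0.0301). In Nrf2 eyes the value was 0.01 ± 0.20 (adjusted *P* = 0.983), with a 95% CI of 0.753 to 1.34 in fold terms, and −0.09 (adjusted *P* = 0.829) after the same correction. Neither of the genes annotated over *Otx2* exons had a row in the table. An antisense RNA, *Otx2os1*, shares 154 bases, and the kit is not stated to keep strand, and *Gm49154*, on the same strand as *Otx2*, shares 168 bases, so reads of either cannot be told apart from those of *Otx2* there.

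*Otx1* (ENSMUSG00000005917, chr11:21994764-22002897, minus strand) encodes the paralog of OTX2, which shares its homeodomain and its role in early RPE. In P20 control eyes it ranged from 59.4 to 106 CPM with a median of 79.7, and in P20 Nrf2 eyes from 48.4 to 89.5 CPM with a median of 60.9. It was lower in the Nrf2 eye in 6 of 7 mice, and only mouse 4, whose Nrf2 library is 1 of the 2 close libraries, went the other way. The log2 fold change at P20 was −0.38 ± 0.17 (adjusted *P* = 0.287), with a 95% CI of 0.586 to 1.01 in fold terms. It passed under limma voom (−0.55, adjusted *P* = 0.0257), without mouse 4 (−0.56, adjusted *P* = 0.0123), and without mice 3 and 4 (−0.48, adjusted *P* = 0.0462).

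At P40, *Otx1* ranged from 25.6 to 88.7 CPM with a median of 47.7 in control eyes, and from 10.2 to 82.0 CPM with a median of 57.9 in Nrf2 eyes. The Nrf2 eye of mouse 6 lay lowest and stood at −3.08 log2 units from the control eye of that mouse, while the Nrf2 eye was the higher one in 6 of 9 mice. Over the pairs the log2 fold change was 0.07 ± 0.37 (adjusted *P* = 0.976), but −0.08 without mouse 5 and 0.37 without mouse 6, and its difference from P20 was 0.47 ± 0.47 (adjusted *P* = 1.00). With age the value was −0.59 ± 0.23 (adjusted *P* = 0.0816) in control eyes, where 6 of 9 P40 libraries were below every P20 library, and −0.15 ± 0.29 (adjusted *P* = 0.770) in Nrf2 eyes. The value in control eyes passed when P40 control mouse 4 (−0.71, adjusted *P* = 0.0379) or mouse 6 (−0.69, adjusted *P* = 0.0467) was left out, and it was −0.13 (adjusted *P* = 0.709) after correction for transcript length and GC content. In Nrf2 eyes the correction turned the value from −0.15 to 0.22 (adjusted *P* = 0.682).

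That correction bears on each comparison of ages, since the balance between long and short transcripts moved with age. The median relative level of the longest 10% of transcripts minus that of the shortest 10% was between 0.12 and 0.78 log2 units in the P20 libraries and between −1.55 and 0.59 in the P40 libraries. The values after correction are therefore given beside those with age. Without P20 mice 3 and 4, the values with age in control eyes were 0.64 (adjusted *P* = 0.133) for *Otx2*, −0.63 (adjusted *P* = 0.141) for *Otx1*, 0.67 (adjusted *P* = 0.197) for *Mitf*, −0.92 (adjusted *P* = 0.582) for *Tfec*, −0.00 (adjusted *P* = 0.998) for *Sox9*, and 0.27 (adjusted *P* = 0.717) for *Pax6*. In Nrf2 eyes they were −1.87 (adjusted *P* = 0.249) for *Tfec* and 0.86 (adjusted *P* = 0.341) for *Pax6*, and 0.08, −0.10, −0.03, and −0.26 for *Otx2*, *Otx1*, *Mitf*, and *Sox9*, with adjusted *P* values of at least 0.623.

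*Mitf* (ENSMUSG00000035158, chr6:97807052-98021349, plus strand) encodes the main regulator of pigment cell genes, with 8 annotated transcripts from several starts that the table sums into 1 value. It ranged from 45.3 to 86.7 CPM with a median of 58.5 in P20 control eyes and from 59.8 to 89.0 CPM with a median of 77.3 in P20 Nrf2 eyes. In 6 of 7 mice the Nrf2 eye was the higher one, by at most 0.91 log2 units in mouse 6, but the log2 fold change of 0.29 ± 0.14 did not pass (adjusted *P* = 0.335, or 0.34 and adjusted *P* = 0.319 without mice 3 and 4). At P40 it ranged from 33.9 to 184 CPM with a median of 78.0 in control eyes and from 45.8 to 102 CPM with a median of 76.8 in Nrf2 eyes. The Nrf2 eye was the higher one in only 4 of 9 mice, and the log2 fold change was −0.27 ± 0.19 (adjusted *P* = 0.677, 95% CI of 0.622 to 1.11 in fold terms). The difference between the ages was −0.55 ± 0.25, with an unadjusted *P* value of 0.0435 by edgeR and an adjusted *P* value of 1.00.

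With age, *Mitf* had a log2 fold change of 0.63 ± 0.28 (adjusted *P* = 0.117) in control eyes and −0.02 ± 0.17 (adjusted *P* = 0.957) in Nrf2 eyes. Of the P40 control libraries of *Mitf*, 4 of 9 were above every P20 library and 1, that of mouse 8, was below every one, and without mouse 8 the value passed (0.74, adjusted *P* = 0.0468). After correction for length and GC content it was 0.65 (adjusted *P* = 0.118) in control eyes and 0.02 (adjusted *P* = 0.951) in Nrf2 eyes. The highest library, P40 control mouse 3 at 184 CPM, also had the highest summed level of the 6 melanocyte markers among all libraries, 1913 CPM, against 294 CPM in the lowest library of its group. Its summed level of the 9 RPE markers, 69746 CPM, was likewise the highest of its group, against 11587 CPM in the lowest. *Mlana*, a melanocyte marker, is also among the pigment genes described below. The part of either cell type in the level of *Mitf* was not tested.

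*Tfec* (ENSMUSG00000029553, chr6:16833373-16898441, minus strand) encodes an RPE-enriched relative of MITF that binds the same motifs. It ranged from 0 to 6.30 CPM in P20 control eyes, with 2 of 7 libraries at or under 3 counts, and from 0.598 to 6.66 CPM in P20 Nrf2 eyes. At P40 it ranged from 0.0220 to 4.74 CPM in control eyes and from 0.0491 to 3.85 CPM in Nrf2 eyes, with 1 of 9 libraries at or under 3 counts in each. At P20 the Nrf2 eye stood between −2.80 (mouse 5) and 6.26 (mouse 6) log2 units from its fellow eye, and the log2 fold change with Nrf2 was 0.53 ± 1.46 (adjusted *P* = 0.885) at P20 and −0.24 ± 1.11 (adjusted *P* = 0.9752) at P40. The 95% CIs ran from 0.145 to 14.3-fold and from 0.157 to 4.54-fold, so a severalfold difference in either direction lies within them. Fellow eyes differed widely in count at P20, with 0 in the control and 102 in the Nrf2 eye of mouse 6. Without mice 3 and 4 the P20 value was 1.03 (adjusted *P* = 0.838), and under limma voom it was −0.78 (adjusted *P* = 0.435).

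With age, *Tfec* had a log2 fold change of −1.92 ± 0.74 (adjusted *P* = 0.130) in Nrf2 eyes, where 5 of 9 P40 libraries were below every P20 library, and −1.13 ± 0.91 (adjusted *P* = 0.387) in control eyes, where none was. When the 2 eyes of each mouse were summed, an alternative chosen after seeing the data, the value with age was −1.48 (adjusted *P* = 0.0415). Corrected for length and GC content, it was −2.10 (adjusted *P* = 0.132) in Nrf2 eyes and −1.28 (adjusted *P* = 0.361) in control eyes.

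*Sox9* (ENSMUSG00000000567, chr11:112782224-112787760, plus strand) encodes an HMG box factor known to bind with OTX2 at visual cycle genes. It ranged from 168 to 286 CPM with a median of 234 in P20 control eyes, from 151 to 386 CPM with a median of 286 in P20 Nrf2 eyes, from 115 to 413 CPM with a median of 214 in P40 control eyes, and from 109 to 315 CPM with a median of 236 in P40 Nrf2 eyes. The 4 groups overlapped, the spread was widest at P40, and the P40 libraries of mouse 8 lay lowest in both groups. The log2 fold change with Nrf2 was 0.16 ± 0.22 (adjusted *P* = 0.737) at P20, 0.16 (adjusted *P* = 0.826) without mice 3 and 4, and −0.02 ± 0.18 (adjusted *P* = 0.987) at P40, where the 95% CI was 0.754 to 1.29 in fold terms. With age it was −0.01 ± 0.24 (adjusted *P* = 0.977) in control eyes and −0.25 ± 0.24 (adjusted *P* = 0.540) in Nrf2 eyes, or 0.15 and −0.09 after correction for length and GC content. The Nrf2 effect on *Sox9* at P40 minus that at P20 was −0.17 ± 0.29 (adjusted *P* = 1.00).

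*Pax6* (ENSMUSG00000027168, chr2:105668900-105697364, plus strand) encodes the paired box and homeodomain factor that patterns the eye field. At P20 it ranged from 224 to 400 CPM with a median of 287 in control eyes and from 114 to 277 CPM with a median of 195 in Nrf2 eyes. It was lower in the Nrf2 eye in 6 of 7 mice, with −1.31 log2 units in mouse 1 as the largest difference, and mouse 4 was again the exception. *Pax6* had a log2 fold change of −0.64 ± 0.19, with an unadjusted *P* value of 0.0100 and an adjusted *P* value of 0.131 by edgeR, and ranked 1244 of the 16303 genes tested by *P* value. It passed under DESeq2 (−0.62, adjusted *P* = 0.0208), limma voom (−0.82, adjusted *P* = 0.00730), and edgeR without mouse 4 (−0.81, adjusted *P* = 0.0120), and it was −0.77 (adjusted *P* = 0.0533) without mice 3 and 4. The 9 markers of amacrine and ganglion cells, which also make PAX6, summed to between 268 and 877 CPM in P20 control eyes with a median of 405, and to between 321 and 548 CPM in P20 Nrf2 eyes with a median of 484, whereas the median log2 fold change of the 8 markers tested was −1.27, with 0 of 8 called by edgeR. Their part in the result was not tested.

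At P40, *Pax6* ranged from 132 to 1179 CPM with a median of 263 in control eyes and from 160 to 1232 CPM with a median of 213 in Nrf2 eyes. The highest libraries, the control eye of mouse 8 and the Nrf2 eye of mouse 3, belonged to different mice, and the next highest were 442 and 400 CPM. Across the pairs the log2 fold change was −0.20 ± 0.29 (adjusted *P* = 0.883), with 6 of 9 mice lower in the Nrf2 eye, and it ran from −0.36 to −0.03 as single mice were left out. The difference from P20 was 0.44 ± 0.38 (adjusted *P* = 1.00). With age the value was 0.36 ± 0.38 (adjusted *P* = 0.520) in control eyes and 0.82 ± 0.42 (adjusted *P* = 0.223) in Nrf2 eyes. The highest libraries decided both values, which were −0.11 (adjusted *P* = 0.755) without control mouse 8 and 0.22 (adjusted *P* = 0.553) without Nrf2 mouse 3. After correction for length and GC content they were 0.64 (adjusted *P* = 0.307) and 1.11 (adjusted *P* = 0.175).

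*Lhx2* (ENSMUSG00000000247, chr2:38339281-38369733, plus strand) encodes a LIM homeodomain factor that maintains optic vesicle fate and acts upstream of *Mitf*. Its differences between Nrf2 and control eyes were within the spread between mice. At P20 it ranged from 73.4 to 166 CPM with a median of 149 in control eyes and from 102 to 203 CPM with a median of 145 in Nrf2 eyes, with a log2 fold change of 0.07 ± 0.21 (adjusted *P* = 0.895, or 0.12 and adjusted *P* = 0.867 without mice 3 and 4). At P40 it ranged from 20.9 to 122 CPM with a median of 74.7 in control eyes and from 39.6 to 114 CPM with a median of 93.0 in Nrf2 eyes, with a log2 fold change of 0.13 ± 0.18 (adjusted *P* = 0.885). The corresponding 95% CIs were 0.757 to 1.46 and 0.831 to 1.43 in fold terms.

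With age, *Lhx2* had the smallest *P* value of the 7 factors in both control and Nrf2 eyes. In Nrf2 eyes, 7 of 9 P40 libraries were below every P20 library and 6 of 7 P20 libraries were above every P40 library. In control eyes, 4 of 9 P40 libraries were below every P20 library and 5 of 7 P20 libraries were above every P40 library. P40 against P20 gave a log2 fold change of −0.79 ± 0.27 (adjusted *P* = 0.0562) in control eyes and −0.80 ± 0.20 (adjusted *P* = 0.0846) in Nrf2 eyes, where its rank by *P* value was 184 of 16745 genes. DESeq2 called it in both, with −0.76 (adjusted *P* = 0.0295) for control eyes and −0.79 (adjusted *P* = 0.00737) for Nrf2 eyes. So did limma voom, with −0.71 (adjusted *P* = 0.0128) and −0.77 (adjusted *P* = 0.00510). With both eyes of each mouse summed it was −0.80 (adjusted *P* = 0.0177). After correction for length and GC content it was −0.48 (adjusted *P* = 0.196) in control eyes and −0.56 (adjusted *P* = 0.0918) in Nrf2 eyes. Without P20 mice 3 and 4 it was −0.70 (adjusted *P* = 0.164) and −0.79 (adjusted *P* = 0.238). The 7 markers of Müller glia, which also make LHX2, had median sums of 1764 CPM at P20 and 1281 CPM at P40 in control eyes, and of 1745 and 1656 CPM in Nrf2 eyes. Of these markers 1 of 7 (*Abca8a*) was called lower with age in control eyes and 0 of 7 in Nrf2 eyes by edgeR, with median log2 fold changes of −0.85 and 0.44, and their part in the result was not tested.

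**Figure D3:**
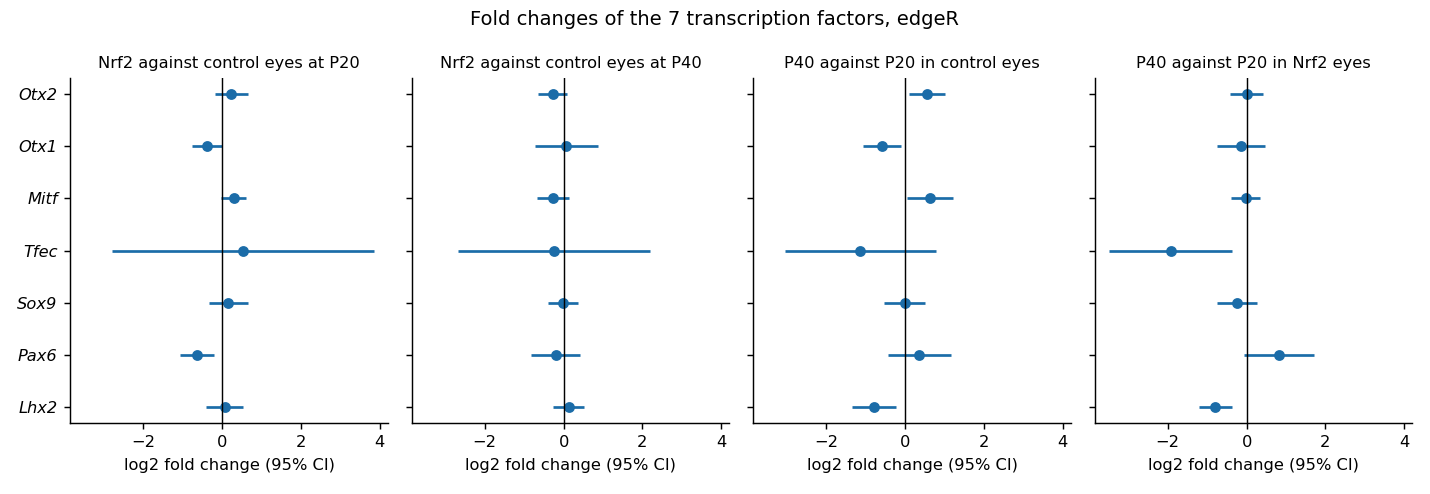
Log2 fold change of each transcription factor by edgeR (points) with its 95% CI (lines) for Nrf2 against control eyes at P20 and P40 and for P40 against P20 in control and Nrf2 eyes. The CI of *Pax6* lies below 0 at P20 and that of *Lhx2* lies below 0 with age in both eyes, at −0.79 and −0.80. With age the CIs of *Otx2* and *Mitf* lie above 0 and that of *Otx1* below 0 in control eyes, that of *Tfec* lies below 0 in Nrf2 eyes, and *Tfec* has the widest CIs.

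The libraries in which *Otx2* was high were often those in which *Sox9*, *Mitf*, and *Lhx2* were. Across the 32 libraries, with the group means removed, log2 CPM of *Otx2* correlated with that of *Sox9* at r = 0.72, of *Mitf* at r = 0.71, and of *Lhx2* at r = 0.65, and *Sox9* and *Lhx2* correlated at r = 0.67. *Pax6* went the other way, with r = −0.63 against *Sox9*, −0.59 against *Lhx2*, and −0.56 against *Otx2*. *Otx1* and *Otx2*, the paralogs, had r = −0.23, and *Mitf* and *Tfec* had r = 0.05. Against every other factor, *Otx1* and *Tfec* had r between −0.37 and 0.31. These correlations are descriptions, since the values share library, depth, and length bias.

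**Figure D4:**
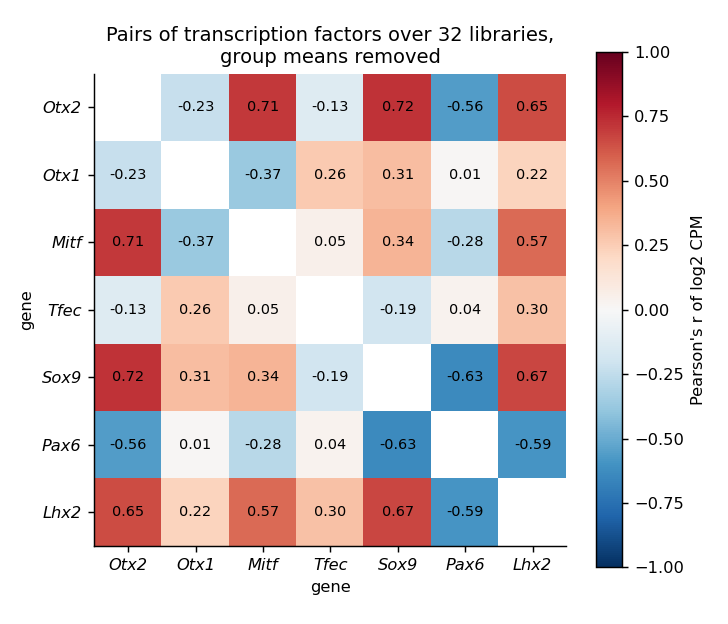
Pearson's r of log2 CPM between each pair of the 7 transcription factors over 32 libraries after the mean of each group was removed (red positive, blue negative). *Otx2*, *Sox9*, and *Lhx2* form a block with r between 0.65 and 0.72, and *Pax6* is negative against each of them.

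Among the genes searched by the same measure, 10328 for each factor and 10329 for *Tfec*, those most like *Otx2* were *Osbpl1a* (r = 0.93), *Gulp1* (0.93), and *Clba1* (0.91), and those most like *Sox9* were *Bmp6*, *Hdac3*, and *Clic6* (each 0.95). *Mitf* was nearest to *Tmem263* (r = 0.92), *Bmp4* (0.85), and *Tent5c* (0.84), and *Lhx2* to *Fndc10* (0.94), *Slc7a4* (0.93), and *Ccni* (0.93). *Otx1* was nearest to *Zfp185* (r = 0.94), *Tap2* (0.92), and *Pdha1* (0.91), and *Pax6* to *Pdcd4* (0.94), *Gps2* (0.90), and *Mitd1* (0.90). The 3 genes nearest to *Tfec* were the smooth muscle genes *Myl9* (0.84), *Tagln* (0.84), and *Acta2* (0.82).

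The closest relatives of the factors gave 2 calls. *Crx*, the photoreceptor member of the OTX family, fell in Nrf2 eyes at P40 by 3.34 ± 0.74 on the log2 scale (adjusted *P* = 0.0210), from a median of 9.10 CPM in control eyes to 0.967 CPM, and had a value of −3.22 ± 1.14 (adjusted *P* = 0.184) at P20, or −3.77 (adjusted *P* = 0.156) without mice 3 and 4. The rod and cone marker sums were lower in Nrf2 eyes as well, the 8 rod markers with medians of 98.5 CPM in control eyes and 16.5 CPM in Nrf2 eyes at P40. *Tfeb*, the MITF relative known for lysosomal genes, fell with age in control eyes by 0.65 ± 0.21 on the log2 scale (adjusted *P* = 0.0449), and had a value of −0.75 ± 0.22 (adjusted *P* = 0.110) in Nrf2 eyes. The *Tfeb* call was lost without P20 mice 3 and 4 (−0.59, adjusted *P* = 0.138) and after correction for length and GC content (−0.38, adjusted *P* = 0.125). No call was made for *Tfe3*, *Sox8*, *Sox10*, or *Lhx9* in any of the 5 comparisons, the smallest adjusted *P* value being 0.0934 for *Tfe3* with age in control eyes. *Pax2*, the optic stalk relative of *Pax6*, was at or under 3 counts in 4 of 7, 5 of 7, 5 of 9, and 6 of 9 libraries of P20 control, P20 Nrf2, P40 control, and P40 Nrf2 eyes, and passed the filter for low counts only in the fit of all libraries. With the factors included, 0 of 4 genes of the MiT/TFE family, 0 of 3 of the OTX family, 0 of 3 of the SoxE family, and 0 of 3 tested among the PAX and LIM relatives were higher in any of the first 4 comparisons, and 1 was lower in each of the MiT/TFE (*Tfeb*) and OTX (*Crx*) families.

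Among 12 genes for eye field and neural retina factors, 10 were tested in each of the first 4 comparisons. None passed at P20, where the smallest *P* values were those of *Neurod1* (−3.74, adjusted *P* = 0.176, or −3.27 and adjusted *P* = 0.305 without mice 3 and 4) and *Crx*. At P40 *Crx* was lower. With age in control eyes *Nr2e3*, a rod factor, fell by 2.54 ± 0.75 on the log2 scale (adjusted *P* = 0.0375), and none of the list passed in Nrf2 eyes. The call for *Nr2e3* was lost without P20 mice 3 and 4 (−2.88, adjusted *P* = 0.0750) and after correction for length and GC content (−2.52, adjusted *P* = 0.0503), at about the same fold change or a larger one. The list medians were −0.81, −0.16, −0.14, and 0.55 in the order of the comparisons above.

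Of 11 other regulators of RPE specification, all tested, none passed at P20 or with age in Nrf2 eyes. At P40 *Bmp4*, a ligand that promotes RPE fate, fell in Nrf2 eyes by 1.02 ± 0.20 on the log2 scale (adjusted *P* = 0.0110), from a median of 162 CPM in control eyes to 83.7 CPM. It is also the second gene most like *Mitf* among libraries, whereas *Mitf* itself had a value of −0.27 in that comparison. With age in control eyes *Gas1*, a regulator of hedgehog signaling, fell by 1.64 ± 0.36 (adjusted *P* = 0.0180) and *Wwtr1*, which encodes the YAP paralog TAZ, by 0.52 ± 0.14 (adjusted *P* = 0.0318) on the log2 scale. Without P20 mice 3 and 4 neither passed, although the values were no smaller (−1.67, adjusted *P* = 0.0568, and −0.61, adjusted *P* = 0.0565), whereas *Hes1*, a Notch target, then passed as lower with Nrf2 at P20 (−1.16, adjusted *P* = 0.0411). With the correction for length and GC content, *Gas1* passed (−1.37, adjusted *P* = 0.0190) and *Wwtr1* did not (−0.47, adjusted *P* = 0.0548). The list medians were −0.10, −0.07, −0.07, and −0.18.

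Some genes known as targets of these factors passed the threshold in comparisons where no factor did. Of 12 visual cycle and RPE effector genes known as targets of OTX2, MITF, or SOX9, 1 was lower in Nrf2 eyes at P20 and 5 at P40, and none was higher, with list medians of −0.26 and −0.85 beside −0.04 and −0.03 over all genes. *Rpe65*, the isomerohydrolase of the visual cycle, fell by 2.17 ± 0.37 on the log2 scale (adjusted *P* = 0.0198) at P20 and by 2.82 ± 0.32 (adjusted *P* = 0.000281) at P40, where its median was 2201 CPM in control eyes and 254 CPM in Nrf2 eyes. *Lrat*, which makes retinyl esters, fell at P40 by 1.80 ± 0.25 (adjusted *P* = 0.00122), *Rgr*, an RPE opsin, by 1.43 ± 0.29 (adjusted *P* = 0.0131), and *Rlbp1*, the 11-*cis*-retinal carrier, by 1.18 ± 0.22 (adjusted *P* = 0.00886) on the log2 scale. The fifth was *Rdh5*, a retinol dehydrogenase, named after its values were seen, with −1.055 ± 0.26 (adjusted *P* = 0.0356). Without P20 mice 3 and 4 the P20 value of *Rpe65* was −2.59 (adjusted *P* = 0.0169), and after correction for length and GC content the 5 genes called at P40 became 7 lower and 1 higher (*Best1*). In the same P40 comparison the values of *Otx2*, *Mitf*, and *Sox9* were −0.28, −0.27, and −0.02, and the differences between factors and targets were not tested. The 9 RPE markers are all among these 12 genes, so they give no separate measure of RPE content.

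With age in control eyes, 3 of these 12 genes rose and none fell, with a list median of 0.65. Among them were *Ttr*, the retinol and thyroxine carrier, with 2.20 ± 0.55 on the log2 scale (adjusted *P* = 0.0259), and *Kcnj13*, an apical potassium channel, with 1.27 ± 0.35 (adjusted *P* = 0.0320). Neither *Ttr* nor *Kcnj13* passed without P20 mice 3 and 4, although the values were larger (2.48, adjusted *P* = 0.0666, and 1.38, adjusted *P* = 0.0852). After correction for length and GC content neither passed either, with smaller values of 1.18 (adjusted *P* = 0.0846) and 0.57 (adjusted *P* = 0.295). In Nrf2 eyes none passed, the list median was −0.09, and the smallest *P* values were those of *Lrat* (−0.85, adjusted *P* = 0.110) and *Mertk* (−0.70, adjusted *P* = 0.120).

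Of 12 pigment genes known as MITF or OTX2 targets, none passed at P20, where *Tyr* had the smallest *P* value (0.52, adjusted *P* = 0.160) and *Gpr143* the next (−0.14, adjusted *P* = 0.586), with 0.62 (adjusted *P* = 0.165) and −0.16 (adjusted *P* = 0.683) without mice 3 and 4. At P40, 1 was lower in Nrf2 eyes, *Gpr143*, a melanosomal receptor, by 0.76 ± 0.19 on the log2 scale (adjusted *P* = 0.0397). With age, 3 pigment genes fell in each kind of eye and none rose, with list medians of −0.52 and −0.80. *Pmel*, the melanosome matrix protein, fell by 1.94 ± 0.36 (adjusted *P* = 0.00895) in control eyes and by 2.51 ± 0.40 (adjusted *P* = 0.00748) in Nrf2 eyes, from medians of 4411 and 5369 CPM at P20 to 1030 and 657 CPM at P40. *Trpm1*, a cation channel gene of pigment cells, fell by 1.26 ± 0.32 (adjusted *P* = 0.0274) and by 1.34 ± 0.29 (adjusted *P* = 0.04996). *Tyr*, the rate-limiting enzyme of melanin synthesis, fell by 1.10 ± 0.29 (adjusted *P* = 0.0293) in control eyes and *Oca2*, a melanosomal transporter, by 0.96 ± 0.17 (adjusted *P* = 0.0134) in Nrf2 eyes, on the same scale. Without P20 mice 3 and 4, *Pmel* was the only pigment gene called with age, in control eyes (−1.87, adjusted *P* = 0.0426) and in Nrf2 eyes (−2.54, adjusted *P* = 0.0386). The values of the others that had passed changed little, with −1.05 (adjusted *P* = 0.0951) for *Tyr* and −1.20 (adjusted *P* = 0.0898) for *Trpm1* in control eyes, and −1.32 (adjusted *P* = 0.173) for *Trpm1* and −0.93 (adjusted *P* = 0.0903) for *Oca2* in Nrf2 eyes. After correction for length and GC content, 4 pigment genes were lower in control eyes and 7 in Nrf2 eyes, *Pmel* among both (−2.04, adjusted *P* = 0.00538, and −2.63, adjusted *P* = 0.00458), and *Trpm1* in neither. Over these comparisons *Mitf* had values of 0.63 and −0.02 with age, neither of which passed.

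**Figure D5:**
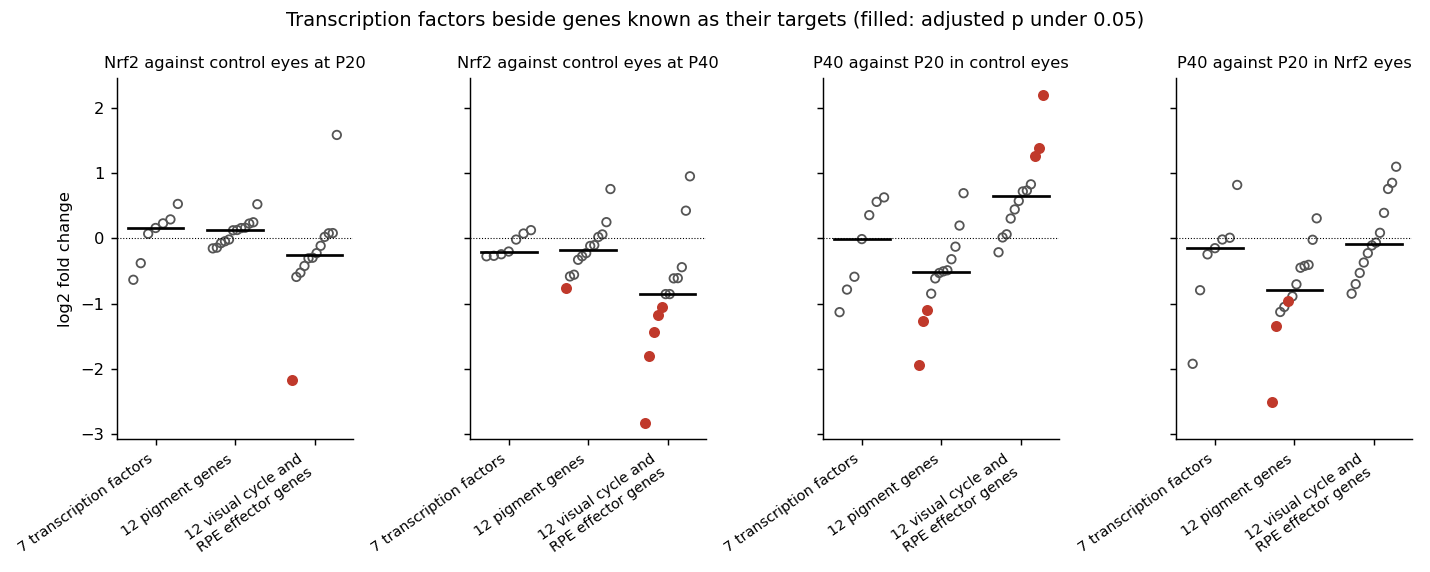
Log2 fold change of the 7 transcription factors, 12 pigment genes, and 12 visual cycle and RPE effector genes in 4 comparisons (filled red points, adjusted *P* value under 0.05 by edgeR; bars, list medians). The factors hold no filled point, whereas 5 effector genes lie lower with Nrf2 at P40, and 3 pigment genes lie lower with age in each eye.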

How the data were processed

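Bulk RNA-seq of RPE was analyzed in 32 libraries, 1 per eye of 16 *rd1* mice. As deposited, the table holds an estimated count for each gene and library, made by the authors from the reads and given as a whole number. The methods describe STAR alignment to mm10 with featureCounts and, in parallel, Salmon with tximport and DESeq2, and the submitters' processing notes name FastQC and Salmon 0.9.1. Which of these made the table, and so whether the values are rounded estimates or counted reads, is not given in the sources used here. Ensembl IDs had a symbol for 34401 of 34453 rows, and 1 row was the human transgene.

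Counts were tested with edgeR 4.0.16 in R 4.3.3 (filterByExpr, TMM, quasi-likelihood F test, Benjamini-Hochberg adjustment over all genes tested, threshold 0.05), and every adjusted *P* value is from edgeR unless DESeq2 1.42.0 or limma 3.58.1 is named. SE is that of the edgeR log2 fold change. Nrf2 and control eyes were compared with mouse as a block, because the methods pair the eyes of a mouse. Deviations from the group means correlated between the eyes of a mouse at a mean r of 0.0131 at P20 (2 of 7 pairs over 0.1) and 0.107 at P40 (3 of 9), against 0.000941 and −0.00473 for eyes of different mice. Ages were compared without a block, and the change of the Nrf2 effect was an interaction over all 32 libraries with mouse as a block. The labels number the eyes within each age, and a Nrf2 and a control eye with the same number were taken as 1 mouse. CPM used TMM library sizes, and CPM per kilobase used the exon lengths of GENCODE M21. With 16548332 to 50542797 estimated counts per library, 3 counts, the lowest level counted as detected, equaled 0.0566 to 0.182 CPM, and this covers counting error only.

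The genes named were the 7 factors, their closest relatives, up to 4 genes with the largest fold change among those called in each of 8 pathway lists (or the 2 with the smallest *P* value where none was called), and the 3 genes most like each factor by Pearson's r of log2 CPM (prior count 2, mean log2 CPM of at least 3). Cell types were read from 10 marker lists. The factors, lists, and markers were chosen with earlier results of these data known. The transcript length and GC correction was a spline offset with 5 degrees of freedom per library. The alternatives tried were limma voom (with weights for library quality), DESeq2, robust dispersion, RLE size factors, no filter, that correction, the other treatment of the block, leaving out each mouse or eye, and leaving out P20 mice 3 and 4. Summing both eyes of each mouse was added after seeing the data, as was rerunning the pathway lists without P20 mice 3 and 4 and with the length and GC correction. The tests were tried on simulated data first. The values of some genes of the lists are not reported here.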

Additional observations from a re-analysis of the deposited data

Results flagged for a closer look

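Among 28 groups of libraries tested (7 factors in 4 groups), 4 held a library that stood apart from the rest of its group by Dixon's criterion. It was applied to CPM that were not log-transformed. Chance meets this criterion in about 1 of 20 groups when values are normally distributed, which was not tested for these CPM. *Pax6* stood apart in both P40 groups. In control eyes mouse 8 had 1179 CPM, with the next library at 442 CPM, and the same library was the lowest of its group in *Otx2* (185 CPM), *Mitf* (33.9 CPM), *Sox9* (115 CPM), *Lhx2* (20.9 CPM), the summed RPE markers (11587 CPM), and total count (17721493). In Nrf2 eyes mouse 3 had 1232 CPM of *Pax6*, with the next library at 400 CPM, and there the summed RPE markers were the highest of the group (71713 CPM) and *Otx2* was at 403 CPM. *Tfec* stood apart in P40 control mouse 6 at 4.74 CPM, with the next library at 2.30 CPM, and in P40 Nrf2 mouse 4 at 3.85 CPM, with the next at 1.44 CPM.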

How the results depend on the processing

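Of 728 values of a factor under an alternative, 706 stayed on their side of the threshold and 22 passed it. No called value changed sign, since none was called, and values near 0 changed sign in up to 12 of 24 alternatives (*Otx2* with age in Nrf2 eyes). For Nrf2 at P20, 0 factors were called by edgeR, 1 by DESeq2, 2 by limma voom, and 1 without mice 3 and 4, and between 0 and 2 as single mice were left out, the 2 without mouse 4. The 556 genes called became 1951 by DESeq2, 2605 by limma voom, 348 without a filter, and 1093 with no replicate block, and they became 143, 163, 1999, 154, 228, and 111 without mouse 1, 3, 4, 5, 6, or 7. At P40, 0 factors were called under any alternative, and the 762 genes became 1380 by DESeq2, 1327 by limma voom, and 521 to 997 as single mice were left out.

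With age in control eyes, 0 factors became 2 by DESeq2, 1 by limma voom, 2 with both eyes summed, and 0 to 3 as single eyes were left out, the 3 without the P40 control eye of mouse 8. The 2483 genes became 4383 by DESeq2, 3747 by limma voom, 914 without a filter, 1085 after the length and GC correction, 158 without mice 3 and 4, and 473 (without P20 control mouse 5) to 4273 (without P40 control mouse 1) as single eyes were left out. In Nrf2 eyes, 0 factors became 1 by DESeq2, 1 by limma voom, and 0 to 1 as single eyes were left out, and the 84 genes became 1832 by DESeq2, 2213 by limma voom, 31 without a filter, 20 without mice 3 and 4, and 21 (without P20 Nrf2 mouse 6) to 190 (without P40 Nrf2 mouse 2). For the change of the Nrf2 effect, 1 gene became 12 by DESeq2, and 0 factors were called throughout.

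The replicate block changed no call of a factor. Without the block, *Pax6* at P20 was −0.61 (adjusted *P* = 0.0710 by edgeR). Between the ages the numbers mark different mice and pair nothing, and a replicate block by those numbers left 191 genes called in control eyes and 3 in Nrf2 eyes, with 0 factors in each. The cause of these movements was not tested. *Tfec* had a median of 45.5 estimated counts, and the other factors had a median of at least 2202.5. What kept any factor from passing was not tested.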

Other observations

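The P40 Nrf2 eye of mouse 6, the lowest library in *Otx1* at 10.2 CPM, held the highest summed level of the 7 bipolar cell markers, 1448 CPM against a median of 33.0 CPM in its group, and the highest cone marker sum of its group, 307 CPM. At P40, 4 of 7 macrophage and microglia markers (*C1qa*, *C1qb*, *Cx3cr1*, and *Adgre1*) rose in Nrf2 eyes by edgeR, with a list median of 1.67 on the log2 scale. The other 3 did not pass, *Aif1* with 1.05 (adjusted *P* = 0.173), *Ptprc* with −0.08 (adjusted *P* = 0.966), and *Csf1r* with −0.99 (adjusted *P* = 0.0902), lower in the Nrf2 eye in 8 of 9 mice. In the same comparison, 0 of 6 melanocyte markers and 0 of 6 endothelial markers were called. With age in control eyes, 4 of 6 fibroblast markers (*Col1a1*, *Col1a2*, *Col3a1*, and *Pdgfra*) fell, with a list median of −1.16. Their part in the values of the factors was not tested. The calls with age of these fibroblast markers, and that of *Abca8a*, were not examined without P20 mice 3 and 4 or after the length and GC correction.

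The mouse gene for NRF2, *Nfe2l2*, had log2 fold changes in Nrf2 against control eyes of 0.28 (adjusted *P* = 0.203 by edgeR) at P20 and 0.07 (adjusted *P* = 0.947) at P40, and it rose with age in control eyes by 0.46 (adjusted *P* = 0.0438).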
